A study of Homo sapiens with 3 samples.

Results

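HS-5 is an established line of human bone marrow stromal cells, and its cells differed widely, over a continuous range, in their share of cytokine transcripts. The cytokine-high cells described here were chosen by their own counts of 6 genes, IL6, CXCL8, CSF3, CSF2, IL1B and IL1A, in the HS-5 monoculture. Among the 1802 cells with at least 1000 unique molecular identifiers (UMIs, each standing for 1 captured RNA molecule), the 20% with the highest share of UMIs on these genes were taken as members, 361 cells of 3865 barcodes in that library and of 11822 barcodes in the series. They were set against the 361 cells with the lowest share, called low cells, and the remaining 1080 are called middle cells. The series held 3 Drop-seq libraries, 1 per condition: HS-5 in monoculture, MM.1S (an established multiple myeloma line) in monoculture, and both lines after 4 h in coculture, with no treatment named for any of them. The libraries held 6143448, 10433182 and 3981392 UMIs, with medians of 949, 2183 and 789 per barcode. HS-5 is a single cultured line and stands in for marrow stroma only as far as a line can. The members' cells share 1 library, so they are not replicates, no test was made, and all intervals cover counting error only.

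The genes that define these cells encode secreted signals. IL1B and IL1A encode interleukin-1 beta and alpha, which bind the interleukin-1 receptor and activate NF-κB, and NF-κB in turn drives transcription of many cytokines, chemokines and its own inhibitors. IL6 is a growth factor for plasma cells, CXCL8 attracts neutrophils, and CSF3 (G-CSF) and CSF2 (GM-CSF) drive production of granulocytes and macrophages. Marrow stromal cells are a known source of all of these, and the study asked how such soluble signals pass between stromal and myeloma cells.

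The label of HS-5 held for the members. Each of the 1802 cells had more than 0.8 of its line-specific UMIs on HS-5 genes. Those genes were defined from the 2 monocultures, this library among them, so a high share was largely built in. The 10 HS-5 markers summed to 9854 counts per 1000000 UMIs (CPM) in high cells (95% Poisson interval 9643 to 10070). In low cells they summed to 9819 CPM (9598 to 10044). The intermediate filament gene VIM stood at 3859 CPM in high and 4151 CPM in low cells. Of the markers of MM.1S cells, TNFRSF17, MZB1 and IRF4 had no UMI in either group, and the 8 with a row summed to 218 CPM in high and 194 CPM in low cells, nearly all on SDC1 and XBP1. Since several of the 6 cytokines are best known from macrophages, markers of other cell types were read too. The monocyte and macrophage markers LYZ, TYROBP and ITGAM were at 0 in both groups, and the list summed to 8.38 CPM in high cells (3.37 to 17.3) and 6.55 CPM in low cells (2.13 to 15.3). The lists of endothelial, T cell, osteolineage and adipocyte markers reached at most 25.1 CPM in high cells, the value of the osteolineage list, which stood at 7.86 CPM in low cells. No member of these 5 lists reached 20 CPM. In low cells, the endothelial, T cell and adipocyte lists summed to 7.86, 0 and 11.8 CPM, and in high cells to 18, 8.38 and 21.6 CPM. Their defining genes VWF, CDH5, CD3E, CD2, SP7 and ADIPOQ had no UMI in either group. Each of these 5 sums was higher in high than in low cells. The separate counting intervals of the 2 groups overlapped for each list, which does not show the groups to be alike, and no difference was tested. Only 4 of the 1802 cells had a barcode that also occurred in another library, none of them a high cell and 1 of them a low cell, although 76 barcodes of the whole HS-5 monoculture recurred in the coculture and 44 in the MM.1S monoculture.

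Promoters of the genes that carry the pattern are shown first, since NF-κB acts through a short DNA motif. They are the 250 bases before the RefSeq transcription start (GRCh38.p14), printed 5′ to 3′ on the gene's strand, with the κB motif GGNNNTTCC in capitals wherever it occurs on either strand. RefSeq entries were matched for 5 of the 6 score genes, all but CSF3. The first 3 below are the score genes whose window held the motif, and PTGS2 is the gene outside the score with the largest ratio.
IL6, chr7:22726950-22727199, plus strand: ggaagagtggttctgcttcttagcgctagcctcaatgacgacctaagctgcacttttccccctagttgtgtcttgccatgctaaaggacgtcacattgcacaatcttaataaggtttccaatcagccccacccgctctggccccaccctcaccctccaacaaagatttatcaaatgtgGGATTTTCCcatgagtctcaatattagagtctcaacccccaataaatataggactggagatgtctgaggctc
CXCL8, chr4:73740319-73740568, plus strand: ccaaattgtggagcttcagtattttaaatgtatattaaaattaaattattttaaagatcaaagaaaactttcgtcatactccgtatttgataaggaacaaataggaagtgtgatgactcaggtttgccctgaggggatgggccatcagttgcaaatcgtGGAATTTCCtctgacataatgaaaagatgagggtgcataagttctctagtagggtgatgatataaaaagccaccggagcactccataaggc
CSF2, chr5:132073539-132073788, plus strand: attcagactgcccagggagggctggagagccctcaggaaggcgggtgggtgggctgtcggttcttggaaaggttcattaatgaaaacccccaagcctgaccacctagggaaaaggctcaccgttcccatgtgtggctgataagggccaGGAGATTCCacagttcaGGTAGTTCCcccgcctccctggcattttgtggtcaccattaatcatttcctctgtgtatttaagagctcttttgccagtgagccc
PTGS2, chr1:186680424-186680673, minus strand: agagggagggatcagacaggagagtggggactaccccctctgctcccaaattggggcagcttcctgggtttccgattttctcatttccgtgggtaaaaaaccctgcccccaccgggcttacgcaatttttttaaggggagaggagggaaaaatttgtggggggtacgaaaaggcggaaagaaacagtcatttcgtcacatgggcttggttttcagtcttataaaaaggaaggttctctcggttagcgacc

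The motif stood 72 bases before the start in IL6, 91 in CXCL8, and 102 and 85 in CSF2, counted to its first base. IL1B, IL1A and PTGS2 held no match to these letters in the window. The search covered this spelling alone, so it says nothing of κB sites elsewhere or of sites with other letters in the window. In CXCL8 an AP-1 motif (TGANTCA, searched on both strands) lay 137 bases before the start, and PTGS2 held a TATA box (TATAAA, on the gene's strand) at 32 bases. The κB sites of CXCL1, CXCL2 and CXCL3 lie in related sequence, shown from base 90 to base 41 before each start to make the shared pair of motifs visible.
CXCL1, chr4:73869303-73869352, plus strand: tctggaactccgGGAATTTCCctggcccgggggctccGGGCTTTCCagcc
CXCL2, chr4:74099236-74099285, minus strand: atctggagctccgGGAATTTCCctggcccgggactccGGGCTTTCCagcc
CXCL3, chr4:74038730-74038779, minus strand: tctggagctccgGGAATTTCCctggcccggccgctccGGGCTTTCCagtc
Compared base by base without a gap, CXCL1 and CXCL3 were identical at 46 of these 50 bases, CXCL1 and CXCL2 at 33, and CXCL2 and CXCL3 at 29, the sequence of CXCL2 being shifted by 1 base around the first motif. The first motif, GGAATTTCC, which reads as a match on both strands, began 78 bases before the start in CXCL1 and CXCL3 and 77 in CXCL2, and the second, GGGCTTTCC, began 53 bases before it in each. Such closely related genes can share reads, so the division of UMIs among the 3 is less certain than their sum. The κB motif occurred in 3 of the 5 score gene windows (60%), in 12 of the 35 windows found for the genes called higher below (34.3%), in 330 of 1626 for all genes of at least 100 CPM (20.3%) and in 17.1% of all 35116 RefSeq windows. The 12 include the related windows of CXCL1, CXCL2 and CXCL3. Other motifs were counted in the same windows of the genes called higher and of all genes of at least 100 CPM. The AP-1 motif occurred in 8.57% (3 of 35 windows) and 4.18%, and the TATA box in 11.4% (4 of 35) and 3.94%. A CEBP motif (TTNNGNAA) occurred in 25.7% (9 of 35) and 24.2%. The κB, AP-1 and TATA shares were each larger in the genes called higher, on few windows, while the CEBP shares were close. No difference was tested. A match is a stretch of letters and not evidence of binding.

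The score spread widely and without a gap. The cell in the middle of the distribution stood at 4682 CPM for the 6 genes together, and the highest cell at 39735 CPM. The last cell inside the top 20% stood at 9033 CPM and the first outside it at 9027 CPM, while the bottom 20% ended at 1872 CPM with the next cell at 1874 CPM, so both limits cut a continuous range. The 6 genes took 1.37% of all UMIs in high cells, 0.482% in middle cells and 0.103% in low cells. A high cell held a median of 23 UMIs of the 6 genes, a low cell 2, and 65 low cells held none. The score is a share of the cell's UMIs, so depth is not independent of it: high cells had a median of 1679 UMIs and 1114 genes, low cells 1524 UMIs and 1021 genes, and middle cells, the deepest, 1868.5 UMIs and 1223.5 genes. Mitochondrial genes took a median of 2.46%, 2.59% and 2.35%. Ribosomal protein genes took 6.78% of UMIs in high and 7.26% in low cells.

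**Figure D1:**
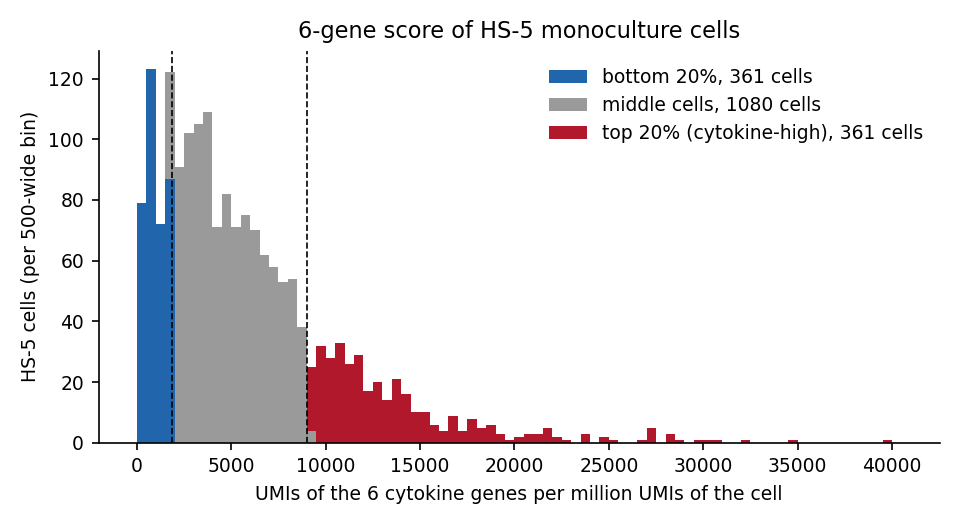
Distribution of the 6-gene score over the 1802 HS-5 monoculture cells with at least 1000 UMIs; the x axis gives the CPM of the 6 genes together in a cell and the y axis the number of cells in bins 500 CPM wide, stacked by group. The dashed lines are the limits of the bottom and top 20%, and the cells fill the range on both sides of each limit, with a tail that reaches 39735.

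The values that chose the members are given as a description. IL6 stood at 3135 CPM in high cells (3017 to 3257) and 183 CPM in low cells (154 to 216). CXCL8 stood at 4567 CPM in high and 194 CPM in low cells, and CSF3 at 1939 and 234 CPM. The less abundant colony-stimulating factor CSF2 had 425 and 35.3 CPM. IL1B stood at 3260 and 340 CPM, and its relative IL1A at 383 and 40.6 CPM. The middle cells lay between, for instance at 991 CPM for IL6 and 1373 CPM for IL1B.

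How the 6 genes were spread over single cells is a description too, since the same genes chose the groups. To compare cells of unequal depth, each was thinned by drawing 1000 of its UMIs at random. A high cell then held a median of 4 of the 6 genes, and 76.2% of high cells held at least 4, and the gene that led differed from cell to cell. All 6 were seen in 22 of the 361 high cells. CXCL8 had the most UMIs in 136 high cells, IL1B in 80, IL6 in 69 and CSF3 in 31, while IL1A led in 1, CSF2 in none and 44 were tied. The count of the 6-gene sum over all thinned cells had a mean of 5.90 and a variance 4.83 times the mean, where independent counting of an equal level would give a ratio near 1. The ratio was 3.17 for CXCL8 and 2.70 for IL6, beside medians of 1.20 and 1.18 over the 42 and 51 genes whose mean lay within 1.25 times of theirs. None of the 42 genes and 1 of the 51 had a higher ratio.

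How the cytokines vary together was described by leaving each out in turn. Cells were chosen on the other 5 genes and the level of the one left out was read, which that choice did not use. The members were defined by these 6 genes with earlier results of these data known, so the ratios describe the set and do not test it. All 6 were higher in the cells chosen on the others. IL6 had 2619 CPM in the top 20% chosen without it (2510 to 2731) and 452 CPM in the bottom 20% (406 to 501), a log2 ratio of 2.53 (95% interval 2.37 to 2.70). CXCL8 had 3850 and 629 CPM (log2 ratio 2.61, 2.48 to 2.75), the largest ratio of the 6 in monoculture, though its interval overlapped those of IL6, CSF2 and IL1A. CSF3 had the smallest, 1628 against 458 CPM (1.83, 1.66 to 2.01). For CSF2 the values were 394 and 68.2 CPM (2.52, 2.11 to 2.98). IL1B stood at 2836 and 711 CPM (2.00, 1.86 to 2.14), and IL1A at 348 and 69.4 CPM (2.31, 1.9 to 2.77). A UMI of IL6 was present in 87.5% of the cells high for the other 5 and in 41% of those low for them.

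The coculture gave a second library, which the definition had not used. Of its 1432 cells with at least 1000 UMIs, 999 were called HS-5 by the same line-specific genes, 378 MM.1S, and 55 lay between the limits of 0.2 and 0.8 and were left out as possible doublets. Among the 999, the top and bottom 20% were 200 cells each, with a median of 1443 and 1428 UMIs. Each left-out gene was again higher in cells chosen on the other 5: IL6 by 2.21 on the log2 scale (1.98 to 2.46), CXCL8 by 2.32 (2.10 to 2.55), CSF3 by 1.91 (1.52 to 2.33), IL1B by 2.02 (1.79 to 2.27) and IL1A by 2.31 (1.53 to 3.24). CSF2 was sparse there, with 26 UMIs in the top and 3 in the bottom 20%, a log2 ratio of 2.96 whose interval ran from 1.39 to 5.46.

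**Figure D2:**
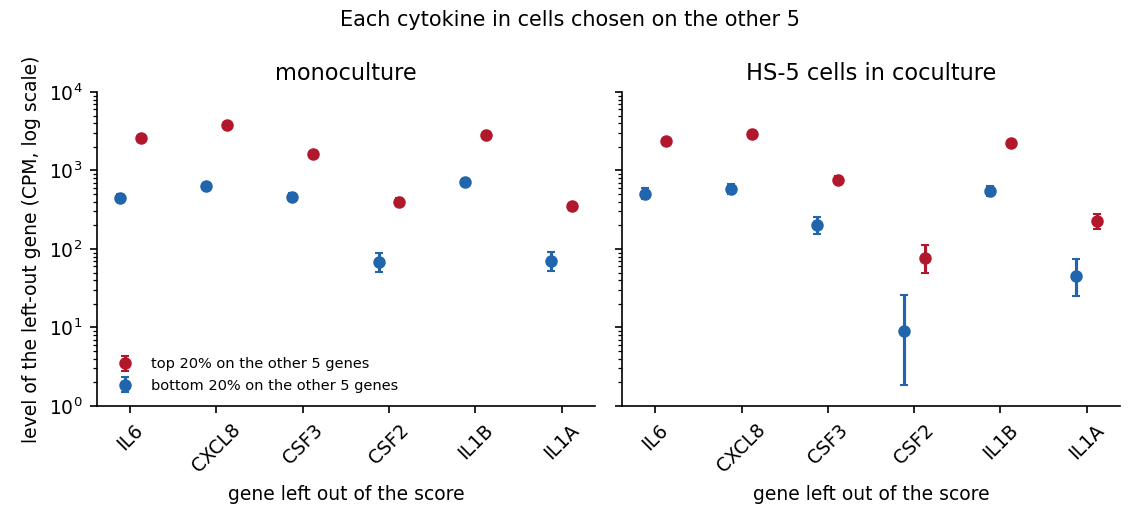
Level of each cytokine gene (CPM, log axis) in HS-5 cells chosen as the top (red) or bottom (blue) 20% on the other 5 genes, in monoculture (left) and coculture (right); bars are 95% Poisson intervals. The red point lies above the blue point for all 6 genes in both libraries, and CSF2 in coculture has the widest interval.

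Beyond the 6 genes, high and low cells were compared over all other genes, with the 6 left out of the totals. The log2 ratio has a pseudocount of 1 CPM, and a gene was counted as higher or lower when it differed at least 1.5-fold. At a mean level of 100 CPM or more, 2028 genes were compared: 44 were higher in high cells (2.17%) and 6 were lower (0.296%), and the median ratio over all of them was -0.01. Among the 6712 genes of at least 20 CPM, where counting error is larger, 5.96% were higher and 5.59% lower. All counts of list members at 20 CPM below are to be read beside these 2 shares. The level is a mean over both groups, so a gene can reach 20 or 100 CPM through 1 group alone. Of genes named below, PTGS2, CXCL1, CXCL2, CXCL3, NAMPT, RCAN1, ANKRD36 and NRG1 reached 100 CPM only through the high cells. CCND2 reached it only through the low cells. In HS-5 cells of the coculture, 97 of 1990 genes were higher (4.87%) and 53 lower (2.66%). Of the 44 genes, 40 lay above 0 in the coculture too, 22 of them by at least 1.5-fold, and none was lower there by that much. Over all 1752 genes at 100 CPM in both libraries, 57.9% lay on the same side of 0 in both. Of the 6 lower genes, 4 lay on the same side and 1 passed the fold.

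PTGS2, which encodes the prostaglandin-producing enzyme cyclooxygenase-2, had the largest ratio of any gene at that level. It stood at 571 CPM in high cells (521 to 625) and 26.2 CPM in low cells, a log2 ratio of 4.39 (3.80 to 5.17), and of 3.42 in coculture (2.43 to 4.73). A PTGS2 UMI was present in 32.7% of high and 5.54% of low cells, so most high cells showed none at this depth. Among all HS-5 cells thinned to 1000 UMIs its variance was 3.30 times its mean, and none of 485 genes of like mean had a higher ratio. In MM.1S monoculture cells PTGS2 stood at 0.965 CPM.

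The CXC chemokines, several of which attract neutrophils through receptors shared with CXCL8, were the list that stood furthest from 0 among lists with at least 5 members at 20 CPM. Of 10 genes on the list 6 reached that level, 5 were higher and none lower, with a median log2 ratio of 1.92, and of 2.24 for the same genes in coculture. CXCL3 had 736 CPM in high and 68.1 CPM in low cells (3.42, 3.02 to 3.87), and a log2 ratio of 2.89 in coculture. CXCL2 had 414 and 48.5 CPM (3.07, 2.60 to 3.63), and 3.21 in coculture. CXCL1 had 192 and 35.4 CPM (2.40, 1.84 to 3.08), and 3.60 in coculture. These 3 genes lie beside CXCL8 and CXCL5 on chromosome 4. CXCL5 had 1146 and 426 CPM, a log2 ratio of 1.43 (1.25 to 1.61), and CXCL6 a ratio of 1.09 (0.61 to 1.62). CXCL14 was the exception, at 170 and 151 CPM (0.17, -0.19 to 0.54). CXCL10, CXCL11, CXCL12 and CXCL16, which include interferon-induced and homeostatic chemokines, had at most 2 UMIs in each group. They are named, like IL1R1 and IL1RN below, to account for the list, although they lay under 20 CPM.

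Of the CC chemokines, 2 reached 20 CPM, and both did so through the high cells. CCL20, which attracts lymphocytes and dendritic cells through CCR6, had 184 CPM in high and 13.1 CPM in low cells, a log2 ratio of 3.72 (2.90 to 4.90), and of 3.91 in coculture. CCL2, the main monocyte attractant, had 51 UMIs in high and 2 UMIs in low cells (4.10, 2.62 to 7.63), with 1 cell giving 13.7% of the UMIs in high cells. In coculture CCL2 stood at 245 CPM in the high and 44.4 CPM in the low HS-5 cells, with a log2 ratio of 2.44.

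**Figure D3:**
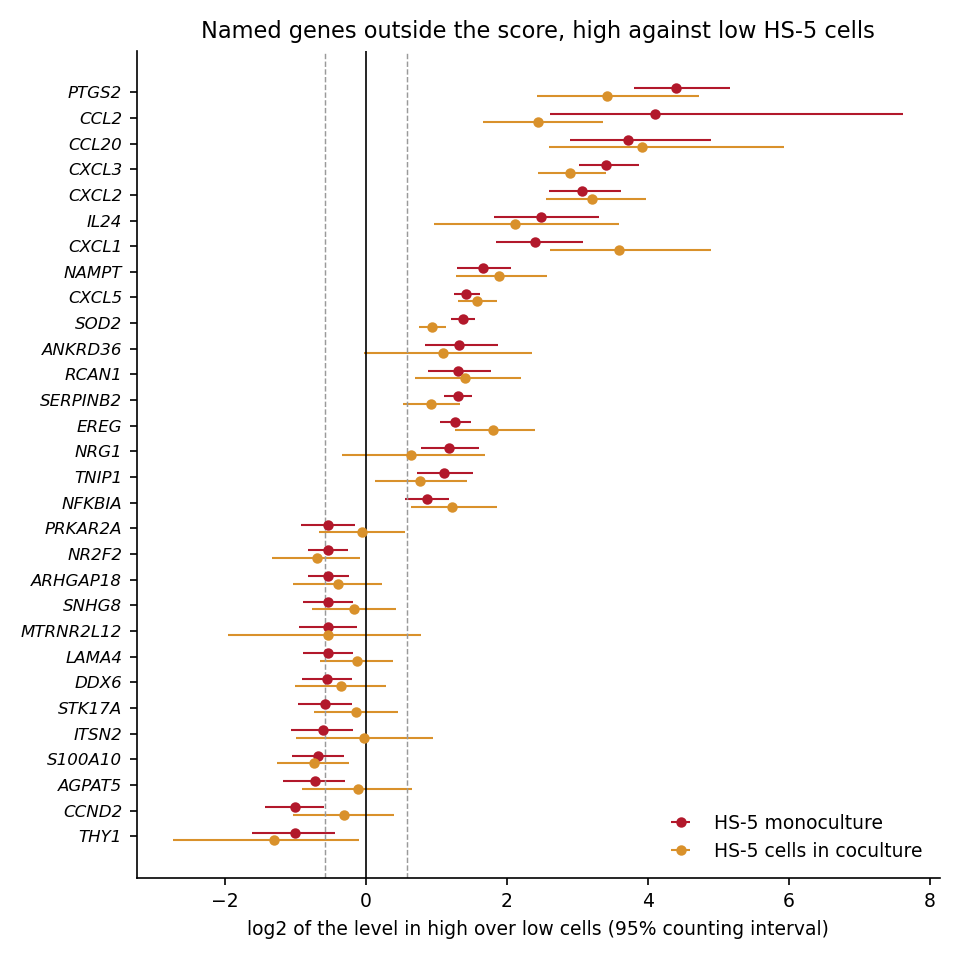
Log2 ratio of the level in high over low HS-5 cells (x axis) for genes outside the score (y axis), in monoculture (red) and in coculture (orange), with 95% counting intervals; dashed lines mark 1.5-fold. The chemokines and PTGS2 lie far to the right in both libraries, while the genes at the bottom lie near the 1.5-fold line and most of their coculture intervals include 0.

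Of the IL-6 family and STAT3 pathway list, 2 of 6 genes at 20 CPM were higher and none lower, beside 5.96% and 5.59% of all genes. The median was 0.13, and both higher genes were ligands. IL24, a cytokine of the IL-10 family, had 144 CPM in high and 24.9 CPM in low cells (2.48, 1.82 to 3.31), and 2.12 in coculture. IL11, which signals through the same receptor subunit as IL-6, had 80.2 and 34.1 CPM (1.21, 0.56 to 1.95). That subunit, IL6ST, stood at 162 and 156 CPM (0.05, -0.31 to 0.42), the kinase JAK1 at 186 and 185 CPM, and the transcription factor STAT3 at 25.1 and 31.4 CPM. LIF, a further ligand of IL6ST, fell just short of 20 CPM, with 30 UMIs in high and 3 in low cells, and was picked out after its values were seen. CLCF1, another ligand of the family, had 9 and 13 UMIs. Among other haematopoietic cytokines, none of 2 genes at 20 CPM was higher and 1 was lower, with a median of -0.73. CSF1, the macrophage growth factor, had 9 UMIs in high and 28 in low cells (-1.68, -3.04 to -0.64), and 6 in each group in coculture. It reached 20 CPM only through the low cells. IL32, a cytokine that induces others, lay at 0.22 (-0.28 to 0.73), and IL15, which sustains lymphocytes, had 7 and 9 UMIs.

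Genes of the interleukin-1 pathway were mostly too sparse or too close to tell apart. The signalling receptor IL1R1 had 10 UMIs in high and 5 in low cells, and the receptor antagonist IL1RN 4 and 1. Of 22 listed genes 9 reached 20 CPM, 2 were higher and 1 lower, beside 5.96% and 5.59% of all genes. The median log2 ratio was 0.22. The higher ones were IRAK3, an inhibitor of receptor signalling (0.88, 0.10 to 1.76, and 1.62 in coculture), and the kinase IRAK2 (0.79, 0.05 to 1.6, and 0.87 in coculture). The kinase IRAK1 was lower, at 69.4 against 110.0 CPM (-0.66, -1.17 to -0.16), and at -0.82 in coculture. For receptors and adaptors of TNF and Toll signals, 1 of 7 was higher and none lower, with a median of 0.03.

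Of the inhibitors and feedback genes of NF-κB, 4 of 10 were higher, while none of 5 subunits and kinases was. NFKBIA (the inhibitor IκBα, itself a target of NF-κB) stood at 310.1 CPM in high and 170.3 CPM in low cells (0.86, 0.56 to 1.18), and a ratio of 1.22 in coculture. TNIP1, which restrains NF-κB with A20, had 218 and 101 CPM (1.10, 0.72 to 1.51), and 0.76 in coculture. The gene of A20 itself, TNFAIP3, lay under 20 CPM, with 12 UMIs in high and 11 in low cells. NFKBIZ, a nuclear IκB protein, had a ratio of 0.62 (0.11 to 1.15) in monoculture and 1.87 in coculture. Of the 10 such genes at 20 CPM, 4 were higher and none lower, beside 5.96% and 5.59% of all genes at that level, and their median was 0.47. The fourth was BIRC3, an inhibitor of apoptosis, at 0.72 with an interval of -0.28 to 1.85, and -0.02 in coculture. It stood at 28.7 CPM in high and 17.0 CPM in low cells, so it reached 20 CPM only through the high cells. A single cell held 25% of its UMIs in high cells. Of the 10 genes, 8 lay above 0, while TNIP2 (-0.34, -1.11 to 0.39) and NFKBIE (-0.12, -1.22 to 0.97) lay below it. Of the 5 subunits and kinases at 20 CPM, none differed by 1.5-fold, and the median was -0.18. RELA had 27 UMIs in high and 28 in low cells, and NFKB1 stood at 114 and 94.3 CPM (0.27, -0.19 to 0.73).

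Effector genes of inflammation beside PTGS2 were higher as well. NAMPT, an enzyme of NAD synthesis that is also secreted, had 309 CPM in high and 96.9 CPM in low cells (1.66, 1.29 to 2.06), and 1.88 in coculture. SOD2, the mitochondrial superoxide dismutase, had 1244 and 479 CPM (1.37, 1.20 to 1.55), and 0.94 in coculture. The complement gene C3 had 133 and 57.6 CPM (1.19, 0.69 to 1.74), and the pattern recognition protein PTX3 110.1 and 72.1 CPM (0.61, 0.11 to 1.12). In this list 6 of 9 genes at 20 CPM were higher and 1 was lower (TNFAIP2, -0.76, -1.64 to 0.05), beside 5.96% and 5.59% of all genes. The median of the list was 0.84. SERPINB2, an inhibitor of plasminogen activators, had 904 and 365 CPM (1.30, 1.11 to 1.51). RCAN1, an inhibitor of calcineurin, had 193 and 77.3 CPM (1.31, 0.88 to 1.77), and 1.41 in coculture. ANKRD36, which has close copies in the genome, had 146 and 57.6 CPM (1.33, 0.83 to 1.87), with a coculture interval of -0.02 to 2.36.

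Growth factors lay on both sides: of 16 at 20 CPM, 4 were higher and 3 lower, beside 5.96% and 5.59% of all genes, and the median was 0.26. The highest were EREG and HBEGF, ligands of the EGF receptor, and NRG1, a ligand of the related ERBB3 and ERBB4. EREG had 778 and 322 CPM (1.27, 1.06 to 1.49) and 1.81 in coculture, HBEGF a ratio of 1.23 (0.51 to 2.06), and NRG1 a ratio of 1.18 (0.78 to 1.61) with a coculture interval of -0.33 to 1.69. A single cell gave 10.2% of the EREG UMIs in high cells. AREG, a further EGF receptor ligand under 20 CPM, had 10 and 13 UMIs. FGF2 had 1870 and 1242 CPM (0.59, 0.47 to 0.71), and 0.56 in coculture. BMP2 was lower, with 31 and 56 UMIs (-0.96, -1.67 to -0.32), but stood at 0.47 in coculture with an interval across 0. PDGFA and BDNF lay at -0.85 and -0.69 with intervals that reached above 0, and PDGFA reached 20 CPM only through the low cells.

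Among extracellular proteins, a few abundant genes were higher by modest amounts. MMP3, the protease stromelysin-1, had 4104 CPM in high and 2307 CPM in low cells (0.83, 0.75 to 0.91), and a smaller ratio of 0.29 in coculture (0.16 to 0.42). The protease inhibitor TFPI2 had 4267 and 2661 CPM (0.68, 0.60 to 0.76), and 0.44 in coculture. The matrix glycoproteins FN1, THBS1 and TNC had ratios of 1.04, 0.91 and 0.63, and of 0.67, 0.51 and 0.61 in coculture. Collagens differed less: COL1A1 stood at 538 and 473 CPM (0.18, -0.02 to 0.39), and COL1A2 at 535 and 394 CPM (0.44, 0.23 to 0.66). Of 25 collagen and matrix genes at 20 CPM, 3 were higher and none lower, beside 5.96% and 5.59% of all genes. None of the 11 adhesion molecules and none of the 12 contractile genes differed by 1.5-fold, with medians of -0.08 and -0.05.

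Chaperones and stress genes of the endoplasmic reticulum, where secreted proteins fold had ratios above 0 in monoculture for all 16 genes at 20 CPM, as 48.3% of all genes at that level did. Of the 16, 5 were higher by 1.5-fold and none lower, beside 5.96% and 5.59% of all genes, and the median was 0.45 in monoculture and 0.38 in coculture. CRELD2 had a ratio of 0.91 (0.34 to 1.54) but of -0.07 in coculture, MANF 0.75 (0.43 to 1.08) and 0.51 in coculture, CALR 0.70 (0.26 to 1.17) and SDF2L1 0.64 (0.21 to 1.08). The most abundant, HSP90B1, had 3182 CPM in high and 2553 CPM in low cells (0.32, 0.23 to 0.40), and 0.44 in coculture. Translocation and vesicle transport genes of the secretory pathway had a median of 0.15, with none of 22 past 1.5-fold. Cytosolic heat shock proteins had a median of -0.07 with none of 12 past it, and HSP90AB1 stood at 2536 CPM in high and 3074 CPM in low cells (-0.28, -0.36 to -0.19).

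At 100 CPM or more 6 genes were lower in high cells, whereas at 20 CPM or more 375 were lower and 400 higher. CCND2, a cyclin that drives entry into S phase, had 89.8 CPM in high and 181 CPM in low cells, a log2 ratio of -1.0 (-1.44 to -0.59), and of -0.30 in coculture (-1.03 to 0.41). S100A10, a partner of annexin A2, had 127 and 203 CPM (-0.67, -1.05 to -0.31), and -0.74 in coculture (-1.26 to -0.24). NR2F2, a nuclear receptor of mesenchymal cells, lay at -0.53 (-0.82 to -0.25) and at -0.69 in coculture (-1.33 to -0.08). The surface protein THY1 (CD90), under 100 CPM, is a defining marker of mesenchymal stromal cells and had 47.9 and 96.9 CPM (-1.0, -1.61 to -0.44), and -1.31 in coculture (-2.74 to -0.10). It was the single stromal marker of 8 at 20 CPM to differ by 1.5-fold. The 12 lowest were taken among genes that lay below 0 in coculture too, so their agreement in side was part of the choice. The others of these 12 were AGPAT5, ITSN2, STK17A, DDX6, LAMA4, MTRNR2L12, SNHG8, ARHGAP18 and PRKAR2A. They lay between -0.73 and -0.53, and each of their coculture intervals included 0.

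Interferon-induced genes lay on both sides of 0. Of 12 at 20 CPM, 2 were higher and 3 lower, beside 5.96% and 5.59% of all genes at that level. The median was -0.21 in monoculture and -0.20 in coculture. IFIT2, which binds viral RNA and limits its translation, had 8 UMIs in high and 29 in low cells, from 6 and 11 cells (-1.88, -3.33 to -0.82), and -0.99 in coculture (-2.57 to 0.38). It reached 20 CPM only through the low cells. IFIT5 had 30 and 59 UMIs (-1.08, -1.79 to -0.45), and -0.71 in coculture. IFI44 lay at -0.65 (-1.20 to -0.13). After thinning, 17 of 361 high cells held a UMI of an IFIT gene (4.71%, exact Clopper-Pearson interval 2.77 to 7.43%), against 100 of 1080 middle cells (9.26%) and 37 of 361 low cells (10.2%, 7.32 to 13.9%). The antiviral exonuclease ISG20 was higher instead, with 45 and 18 UMIs (1.16, 0.37 to 2.07), at 0.07 in coculture, and IRF1 had a ratio of 0.62 (-0.20 to 1.51).

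Cell cycle genes were close between the groups. None of the 34 genes of G2 and mitosis differed by 1.5-fold, with a median of 0.11 in monoculture and 0.32 in coculture. Of 25 S phase genes 3 were higher and 1 lower, beside 5.96% and 5.59% of all genes, with a median of 0.11. Of high cells, 23.0% were among the 20% of all cells with the largest share of G2 and mitosis UMIs (18.7 to 27.7%), and of low cells 19.1% (15.2 to 23.6%). The cell cycle inhibitor CDKN1A was higher, with 38 UMIs in high and 10 in low cells (1.72, 0.76 to 2.97), and 0.82 in coculture (-0.71 to 2.57). CDKN1A reached 20 CPM only through the high cells. The stress gene GADD45A was higher too (0.66, 0.39 to 0.94, and 0.88 in coculture). Immediate early and AP-1 genes were mixed. KLF4 had 28 and 6 UMIs (1.96, 0.79 to 3.66) and reached 20 CPM only through the high cells (33.5 against 7.86 CPM). For KLF4, 1 cell held 85.7% of the UMIs in high cells and the coculture had 3 in each group. The stress-induced gene IER3 had a ratio of 0.91 (0.38 to 1.48) and FOS one of -0.17 (-0.95 to 0.60), and 4 of 15 were higher, KLF4 among them, beside 5.96% of all genes. None of the 15 was lower. Among feedback genes of MAP kinases, DUSP1 was higher (1.10, 0.53 to 1.73). In all, 1 of 9 was higher and 2 lower, beside 5.96% and 5.59% of all genes.

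**Figure D4:**
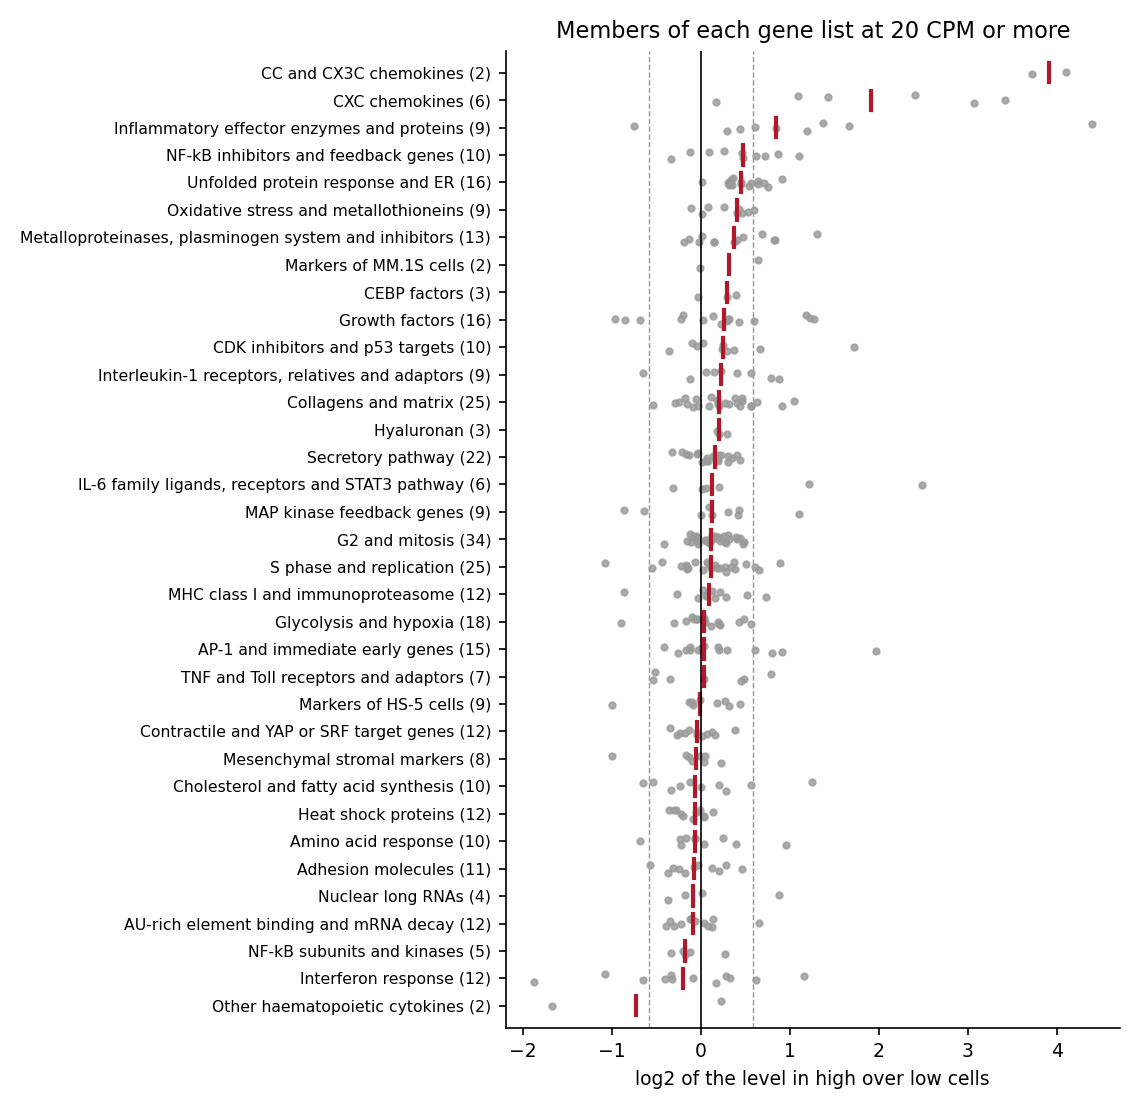
Log2 ratio of high over low HS-5 monoculture cells for each member (grey points) of the gene lists with at least 2 members at 20 CPM (number in brackets), with the list median in red; dashed lines mark 1.5-fold. Chemokines and inflammatory effectors lie at the top, where the 2 CC chemokines (median 3.91) reached 20 CPM through the high cells alone; CXC chemokines have a median of 1.92 and effectors of 0.84, most other lists have medians near 0, and the interferon list lies at -0.21.

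Beside the list of other haematopoietic cytokines, at -0.73 over 2 genes, and the lists already described, the remaining lists had medians between -0.09 and 0.40. Oxidative stress genes had a median of 0.40, with NQO1 at 0.60 (0.32 to 0.88) the highest of 9. Metalloproteinases and the plasminogen system had 0.38, with 4 of 13 higher beside 5.96% of all genes. The 3 CEBP factors had 0.30, with none past 1.5-fold. CDK inhibitors and p53 targets had 0.24, with 2 of 10 higher. Hyaluronan genes had 0.20, MAP kinase feedback genes 0.13, MHC class I genes 0.09, glycolysis and hypoxia genes 0.04, and immediate early genes 0.03. Genes of amino acid response and of cholesterol and fatty acid synthesis both had -0.07, and mRNA decay genes and nuclear long RNAs -0.09.

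The graded choice of cells allowed the levels to be read over the whole range of the score, with all 1802 cells divided into 5 groups of equal number by rank. PTGS2 stood at 26.2, 58.9, 104, 192 and 573 CPM from the lowest to the highest group. CXCL3 stood at 68.1, 285, 351, 563 and 737 CPM, and SOD2 at 479, 798, 972, 1099 and 1245 CPM. All 3 were higher in each group than in the one before. For PTGS2 the last step was the largest. CCND2 stood at 181, 140.1, 127, 129.9 and 88.9 CPM, and VIM stayed between 3857 and 4151 CPM.

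**Figure D5:**
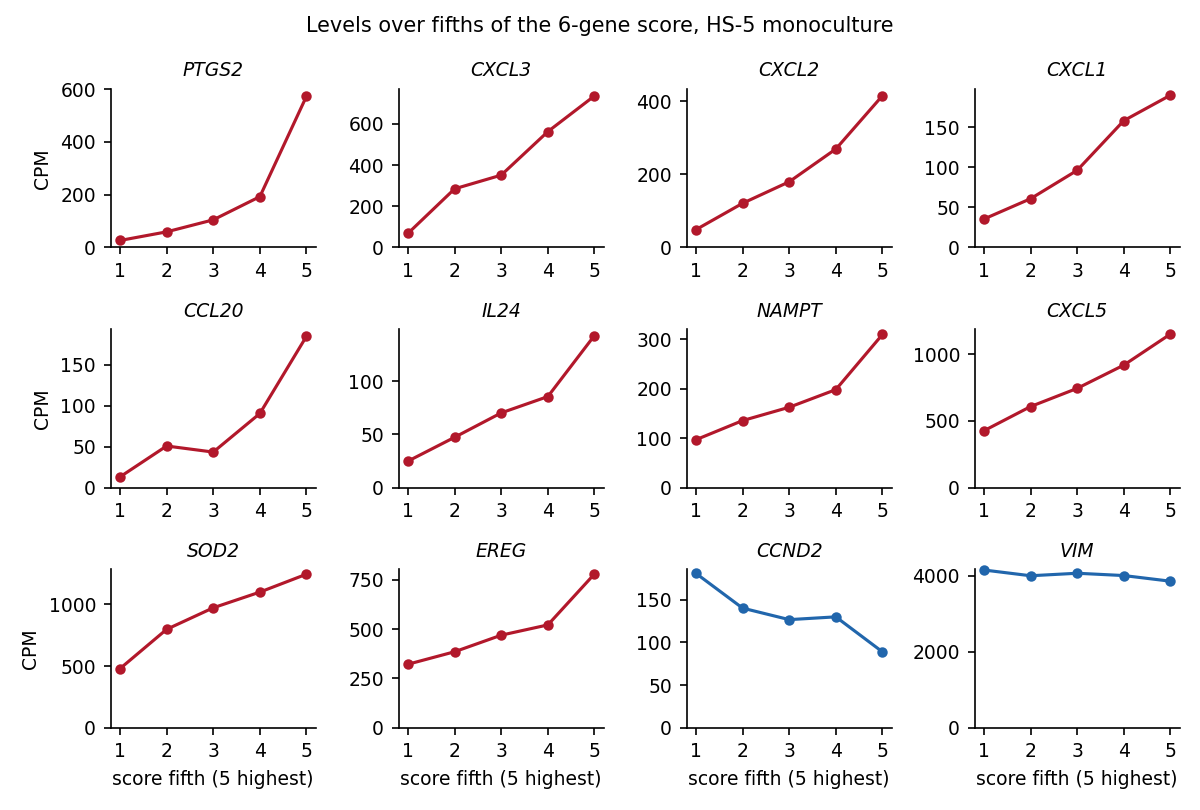
Level (CPM, linear axis from 0) of 12 genes outside the score in the HS-5 monoculture cells divided into 5 equal groups by rank of the 6-gene score, from the lowest (1) to the highest (5). The 10 genes in red are highest in the last group, CCND2 is highest in the first, and VIM stays between 3857 and 4151 CPM.

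The genes outside the score were also read against each cytokine singly. Cells thinned to 1000 UMIs were split by whether they held a UMI of 1 cytokine, from 1203 cells with IL1B to 277 with IL1A and 248 with CSF2, so the splits differ in size and no difference between them was tested. The log2 ratio of PTGS2 was 1.87 between cells with and without IL6 (1.49 to 2.28), 1.65 for CXCL8 (1.26 to 2.08), 1.61 for CSF3 (1.25 to 2.01), 1.21 for IL1A (0.86 to 1.55), 0.79 for IL1B (0.43 to 1.18) and 0.09 for CSF2 (-0.37 to 0.53). CXCL3 lay above 0 in all 6 splits, from 0.57 with CSF3 (0.32 to 0.84) to 1.61 with CXCL8 (1.30 to 1.95). CCL20 ranged from 0.39 with CSF2 (-0.32 to 1.05) to 1.48 with IL1A (0.94 to 2.03), and the latter interval overlapped that of each other split. The 6 cytokines were read in the same way, again as a description of the chosen set. IL1A had a ratio of 1.30 with its relative IL1B (0.90 to 1.74) and of 1.04 with IL6 (0.71 to 1.39), and CSF2 had 1.31 with CXCL8 (0.92 to 1.73) and 1.26 with IL6 (0.90 to 1.65). CCND2 lay between -0.57 and -0.31 for all 6. Its interval lay below 0 for CXCL8 (-0.76 to -0.02) and CSF3 (-0.95 to -0.20) and included 0 for IL6, CSF2, IL1B and IL1A. VIM lay between -0.12 and 0.00.

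Cytokine-high cells were less frequent in the coculture at matched depth. With cells thinned to 1000 UMIs, the limit of the monoculture's top 20% came to 9 UMIs of the 6 genes, which 439 of 1802 monoculture HS-5 cells reached (24.4%, 22.4 to 26.4%, above 20% because of ties) and 145 of 999 coculture HS-5 cells (14.5%, 12.4 to 16.9%). Each condition is 1 library, so a difference between libraries and one between conditions cannot be told apart. Without thinning, 20% of monoculture and 11.6% of coculture cells reached the limit. The 6 genes summed to 5779 CPM in the monoculture cells and 4352 CPM in the coculture HS-5 cells, with CSF2 at 213 and 28.3 CPM and CSF3 at 837 and 421 CPM, whereas IL6 stood at 1239 and 1151 CPM. CXCL8 stood at 1767 and 1332 CPM, IL1B at 1541 and 1305 CPM and IL1A at 181 and 115 CPM.

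No MM.1S cell approached the limit. Of 3870 MM.1S monoculture cells, 36 held any UMI of the 6 genes after thinning (0.930%, 0.652 to 1.29%), with at most 4 UMIs, and 0 reached 9, which allows a share of up to 0.0953%. Of the 378 MM.1S cells in coculture, 17 held any (4.50%, 2.64 to 7.10%), with at most 1 UMI, against 87.0% of the HS-5 cells there. The MM.1S monoculture held no HS-5 cells, and 71 of its 87 UMIs of the 6 genes were CXCL8. Whether the UMIs in MM.1S cells came from free RNA or from the line's own transcripts was not tested. MM.1S-specific genes stood at 447 CPM in the high and 598 CPM in the low HS-5 cells of the coculture, and their part in the coculture ratios was not tested.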

How the data were processed

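The authors deposited whole-number UMI counts per gene and cell barcode from 3 Drop-seq libraries, without normalization. The submitters' processing notes name Cell Ranger 3.0.2, UMI-tools 1.0.0, STAR 2.5.3a, Subread featureCounts 1.6.4 and SAMtools 1.9 and the build GRCh38, with no role or order. The annotation and the choice of barcodes are not given in the sources used here.

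From these counts, cells with at least 1000 UMIs were scored by their share of UMIs on IL6, CXCL8, CSF3, CSF2, IL1B and IL1A. The top 20% were compared with the bottom 20% (ties kept). UMIs were summed per group and scaled to CPM over all genes but these 6, which are themselves given as CPM of all UMIs. For a left-out gene, only the other 5 were dropped from the total. Intervals are exact at 95% (Poisson for levels, conditional binomial for ratios, Clopper-Pearson for shares of cells) and cover counting error only. Since each condition had 1 library, nothing was tested. In high cells, 3 counts were worth 3.54 CPM.

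Coculture cells were called HS-5 with over 0.8 of line-specific UMIs on 225 HS-5 genes against 82 MM.1S genes, each at least 50 times higher in its own monoculture. No doublet caller was run, and doublets of 2 HS-5 cells cannot be seen. Thinning drew 1000 UMIs per cell without replacement (seed 1).

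The genes named are the 6 score genes, the 12 highest and 12 lowest ratios at 100 CPM or more with the same side of 0 in coculture, and from each of 40 lists up to 4 of the highest and 4 of the lowest members at 20 CPM or more. The members and lists were chosen with earlier results of these data known. A gene picked by it is left out here. Promoters come from RefSeq (GRCh38.p14). The steps were tested on simulated data (python 3.11.15, numpy 2.4.6, scipy 1.17.1, pandas 2.3.3).

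The alternatives were thinning, other minimum UMIs, other sizes of the groups, a split within depth bins, equal weight per cell, other totals, levels and pseudocounts, leaving out deep, mitochondrial-rich or G2/M-rich cells, centring on the median of all genes, scores without each gene, and, for the coculture, a limit of 0.9. A 2-fold limit and leaving out cells with shared barcodes were chosen after seeing the data.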

Additional observations from a re-analysis of the deposited data

Results flagged for a closer look

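DUSP10, a phosphatase of MAP kinases, was flagged because its difference between high and low cells passed 1.5-fold in both libraries but in opposite directions: the log2 ratio was -0.87 in HS-5 monoculture (-1.86 to 0.01, 17 and 29 UMIs) and 0.82 in HS-5 cells in coculture (-0.71 to 2.57, 11 and 6 UMIs). Both intervals include 0, and the difference between the libraries was not tested.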

How the results depend on the processing

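The 44 higher genes stayed above 0 in each alternative but thinning to 1000 UMIs, where 43 did, but fewer were called again: 22 with thinning, 22 with 30% of cells, 25 at 200 CPM, 29 to 32 with 2000 UMIs, depth bins, equal weight per cell or a score without IL6, CXCL8 or IL1B, 33 at 500 UMIs, and 34 or more otherwise, the 2-fold limit aside. The count of higher genes became 103 with the top and bottom 10% of cells, 25 with 30%, 115 at 50 CPM, 25 at 200 CPM and 15 at 2-fold, and it lay between 38 and 64 otherwise. The 6 lower genes depended on the settings: the count was 18 with thinning, 37 at 2000 UMIs, 56 with 10% and 3 with 30% of cells, 25 with equal weight per cell, 10 with the score genes in the total, 79 at 50 CPM, 1 at 200 CPM, 3 with a pseudocount of 10, 12 without the deepest 5% of cells, 19 without the 20% richest in G2/M UMIs, and 1 at 2-fold. With CXCL8, CSF3, CSF2, IL1B or IL1A left out of the score it was 39, 12, 10, 15 and 12. Of the 6, only 1 was called again under thinning, with 30% of cells, within depth bins, at 200 CPM and with the score without IL6 or without CXCL8, and 2 to 6 in the others but the 2-fold limit. The number of lists of 5 or more genes with a median past 1.5-fold was 2, and 5 with 10% of cells.

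The ratios of left-out genes with the top and bottom 10% were 3.0 for IL6, 3.58 for CXCL8, 2.09 for CSF3, 3.83 for CSF2, 2.57 for IL1B and 3.20 for IL1A, and with thinning 2.20 for CXCL8 and 1.73 for IL1B. The share of coculture cells above the limit was 11.6% without thinning. Of 660 values of named genes under the alternatives, 61 left their counting interval and none of those past 1.5-fold changed side, and of 655 list medians 28 moved by 0.25 or more. No paired analysis was possible because each condition is 1 library. Genes under 20 CPM were left out of the counts of list members, and the few named above have few UMIs. A cell of 1000 UMIs shows few of its transcripts. The causes of these shifts were not tested.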
